A study of Mus musculus with 6 samples.

Results

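The vomeronasal receptor, defensin and Mas-related receptor (Mrgpr) gene clusters of the mouse genome were examined for chromatin accessibility in 7 windows of the mm10 assembly. The windows hold vomeronasal receptor genes on chromosomes 5, 6, 7, 13 and 17, the defensin genes on chromosome 8 and the Mrgpr genes on a second stretch of chromosome 7. A site belonged to a window when its midpoint lay inside it, which gave 400 of the 229903 sites in the deposited table (0.174%). The windows were chosen with levels and differences of these sites known, so everything that follows is a description and carries no test. Accessibility was measured by ATAC-Seq, in which a transposase cuts open chromatin, in primary mouse embryonic fibroblasts (pMEFs) of C57bl6 background. There were 3 lines from HAT1 WT embryos and 3 lines from embryos lacking HAT1 (HAT1 KO), the enzyme that acetylates new histone H4. The labels give no treatment, no embryo age and no sex for the lines. The deposited levels are one mean per site and genotype on the log2 scale, so the spread between the 3 lines of a genotype cannot be given for any value. How deeply each line was sequenced is unknown, and the number of reads at a site limits the precision of its value.

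Vomeronasal receptors of the Vmn1r and Vmn2r families are G protein-coupled receptors of the vomeronasal organ, where each sensory neuron expresses one or a few of them to detect pheromones and other social cues. Formyl peptide receptors (Fpr) serve in immune cells and, for some members, in the vomeronasal organ. Alpha defensins (Defa) are antimicrobial peptides of Paneth cells in the gut, beta defensins (Defb) are made by many epithelia, and Mrgpr receptors mark itch and pain neurons and mast cells. All of these families lie in tandem arrays that arose by gene duplication.

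The sequences of 7 sites are given because the accounts of the windows below return to them, and a stretch of the defensin cluster is given because it occurs at more than 1 place. They were read from the GRCm38 assembly (the same sequence as mm10), plus strand, 5′ to 3′, as the central 300 bases of a site or the whole of a shorter one. Capitals mark CG dinucleotides. Each of the 7 has the highest HAT1 WT level of its window or, among sites with at least 16 reads in the higher genotype, the lowest difference.
Mrgprb12-ps region, chr7:48132311-48132594: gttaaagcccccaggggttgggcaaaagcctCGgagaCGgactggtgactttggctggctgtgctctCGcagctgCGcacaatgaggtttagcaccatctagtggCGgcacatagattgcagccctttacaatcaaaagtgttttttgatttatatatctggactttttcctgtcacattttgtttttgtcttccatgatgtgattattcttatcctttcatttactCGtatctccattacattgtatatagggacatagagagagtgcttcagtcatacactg
defensin cluster, lowest site, chr8:19980097-19980396: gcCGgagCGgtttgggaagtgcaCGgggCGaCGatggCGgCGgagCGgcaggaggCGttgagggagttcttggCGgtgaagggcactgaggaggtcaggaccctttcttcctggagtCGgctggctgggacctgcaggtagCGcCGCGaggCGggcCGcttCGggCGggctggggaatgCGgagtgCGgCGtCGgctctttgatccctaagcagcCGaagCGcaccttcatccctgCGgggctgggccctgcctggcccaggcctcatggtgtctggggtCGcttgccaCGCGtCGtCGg
Vmn1r197 region, chr13:22335482-22335781: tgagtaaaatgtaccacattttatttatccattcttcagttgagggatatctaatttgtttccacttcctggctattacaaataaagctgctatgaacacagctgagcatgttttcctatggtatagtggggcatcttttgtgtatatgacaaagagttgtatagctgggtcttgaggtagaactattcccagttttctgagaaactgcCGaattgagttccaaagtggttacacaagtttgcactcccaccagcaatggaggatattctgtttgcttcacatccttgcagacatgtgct
Vmn1r199 intron, chr13:22381637-22381936: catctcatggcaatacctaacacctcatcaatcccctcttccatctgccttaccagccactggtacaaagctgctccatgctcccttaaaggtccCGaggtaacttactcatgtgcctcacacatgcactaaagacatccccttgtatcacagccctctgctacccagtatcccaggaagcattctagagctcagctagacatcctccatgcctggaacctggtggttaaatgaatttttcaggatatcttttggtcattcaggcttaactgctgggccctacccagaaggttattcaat
Vmn2r-ps21 region, chr5:108866859-108867093: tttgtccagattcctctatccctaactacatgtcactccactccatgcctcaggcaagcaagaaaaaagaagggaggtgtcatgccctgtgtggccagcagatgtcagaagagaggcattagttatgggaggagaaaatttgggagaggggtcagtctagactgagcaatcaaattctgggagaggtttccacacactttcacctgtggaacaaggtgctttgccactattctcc
Vmn2r96 region, chr17:18558808-18559107: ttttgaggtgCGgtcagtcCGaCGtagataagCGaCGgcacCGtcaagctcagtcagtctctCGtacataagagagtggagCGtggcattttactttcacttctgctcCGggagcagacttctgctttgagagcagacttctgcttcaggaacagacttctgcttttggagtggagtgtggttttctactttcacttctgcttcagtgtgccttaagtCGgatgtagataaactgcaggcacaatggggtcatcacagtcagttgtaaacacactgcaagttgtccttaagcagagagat
Crlf2 promoter, chr5:109557283-109557582: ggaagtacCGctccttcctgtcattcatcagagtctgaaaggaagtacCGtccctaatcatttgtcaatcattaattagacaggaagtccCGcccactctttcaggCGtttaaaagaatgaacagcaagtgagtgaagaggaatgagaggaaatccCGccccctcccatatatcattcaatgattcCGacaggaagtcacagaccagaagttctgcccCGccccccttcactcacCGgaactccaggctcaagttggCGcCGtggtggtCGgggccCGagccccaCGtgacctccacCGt
defensin cluster, repeated stretch, chr8:20385156-20385283: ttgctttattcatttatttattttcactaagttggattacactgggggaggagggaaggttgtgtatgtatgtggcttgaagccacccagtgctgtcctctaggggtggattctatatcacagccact

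The printed stretches differ in composition. The lowest defensin site holds 30 CG dinucleotides in 300 bases, against 6 in the 284 bases of the Mrgprb12-ps site and 14 at the promoter of Crlf2, a cytokine receptor gene whose site had nearly the same level in both genotypes. The Vmn1r197 and Vmn1r199 stretches hold 1 each, and the Vmn2r-ps21 stretch holds 0. Over all 229903 sites the median was 3 CG dinucleotides in the 300 bases around the site centre, and 12.3% of sites had 10 or more, compared with 54 of the 400 members (13.5%). The repeated stretch of 128 bases is a whole site in the defensin cluster and was found at 2 places on chromosome 8, the second on the other strand inside the site chr8:20592830-20593061.

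Over the whole table, the median log2 difference, HAT1 KO minus HAT1 WT, was -0.06, and the summed normalized reads in HAT1 KO lines were 94.8% of those in HAT1 WT lines. The cell type of the labels was looked for in promoter sites, which are sites within 1 kb of an annotated start. Each of the 11 fibroblast genes had one, from 4.66 reads at Lum to 626.0 at Vim in HAT1 WT cells, with a median of 153.3. Of the other lists, 4 of 5 vomeronasal and olfactory neuron genes, 4 of 5 Paneth cell and gut genes, 2 of 5 sensory neuron genes, 3 of 3 blood genes and 3 of 3 endothelial genes had a promoter site. With a gene lacking a site counted as 0, the medians of these lists were 110.7, 17.6, 0, 72.5 and 66.7 reads in HAT1 WT cells. Gnai2 of the vomeronasal list had 407.3 reads, so the levels of the lists overlap. Trpc2, the ion channel that defines vomeronasal neurons, had none, nor did Mmp7, the protease that processes alpha defensins, nor Scn10a, Prdm12 and Trpv1 of sensory neurons. At Hat1 itself the promoter site had 206.5 normalized reads in HAT1 WT and 238.9 in HAT1 KO cells and a second site had 12.6 and 17.5 reads. The third Hat1 site had 22.0 and 3.41 reads, the only one of the 3 that was lower in HAT1 KO cells. These levels do not check the deletion itself.

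The clusters were thinly covered by accessible sites. The 7 windows span 13.1 Mb and held 30.4 sites per Mb, compared with 104.9 per Mb in the 2 Mb on each side of them and 84.4 per Mb over the genome. Of the 131 stretches of 100 kb in the windows, 73 (55.7%) held no site, against 10.7% in the flanks and 15.9% over the genome without chromosome Y. The sites that were present lay mostly at the borders of the arrays. From the first to the last family gene of each window there were 158 sites in 11.3 Mb, or 14.0 per Mb, and the remaining 1.87 Mb of the windows held 242 sites, or 129.4 per Mb.

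**Figure D1:**
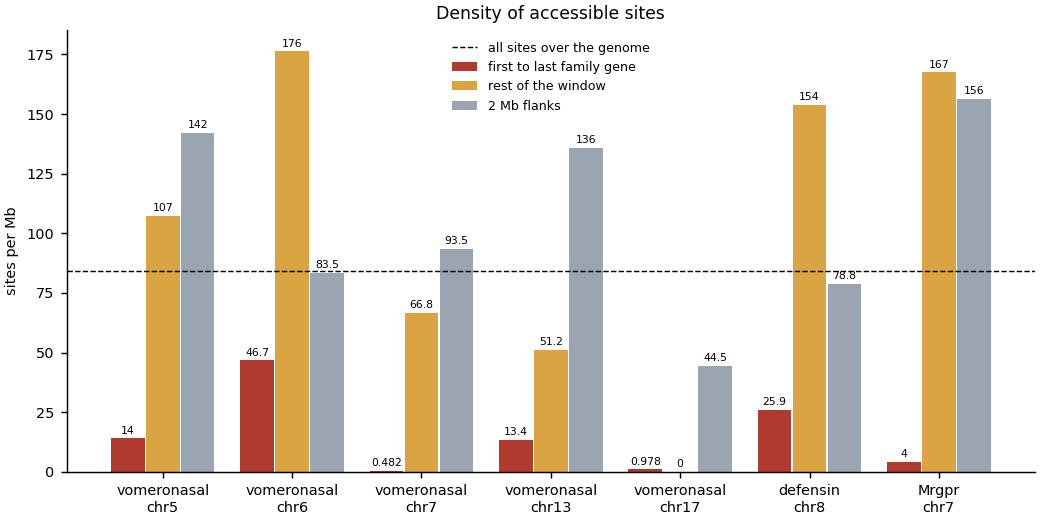
Accessible sites per Mb (bars, linear axis from 0) in each of the 7 windows, split into the stretch from the first to the last family gene and the rest of the window, beside the 2 Mb flanks; the dashed line is the density of all sites over the genome. The stretch of family genes had fewer sites per Mb than the flanks in each window, from 0.482 per Mb in the vomeronasal window of chromosome 7 to 46.7 per Mb on chromosome 6.

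The longest stretch without a site in the vomeronasal window of chromosome 7 was 1.41 Mb and covered 33 of the 36 Vmn2r genes and pseudogenes there. On chromosome 17 it was 1.33 Mb, running to the end of the window and covering 20 of 29 Vmn2r and Fpr genes. The longest such stretches were 0.847 Mb in the Mrgpr window, with 15 of its 28 Mrgpr genes, and 0.744 Mb in the defensin window, with 35 of its 63 defensin genes. Chromosomes 5, 13 and 6 had shorter ones of 0.563, 0.366 and 0.325 Mb. Stretches of at least 1.33 Mb are rare in the table without chromosome Y, where 25 of the 229847 intervals between neighbouring sites were that long. The window sequences were 37.2 to 41.7% GC and 43.2 to 49.7% repeat-masked, while the flanks were 39.2 to 46.7% GC and 25.4 to 45.9% masked. The assembly also has 350 kb of gap in the defensin window, where no site can be called. How much site-free sequence occurs more than once in the genome was not measured. The part of composition, gaps and repeated sequence in the site density was not tested, so a stretch without sites is not shown to be closed.

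The starts of the family genes were almost all outside accessible sites. The windows hold 243 annotated genes of the families, 146 of them protein coding and 97 pseudogenes, made up of 75 Vmn1r, 75 Vmn2r, 39 Defa, 24 Defb, 28 Mrgpr and 2 Fpr genes. A site within 1 kb of a start was present for 7 of the 243 (2.88%), and all 7 are Vmn1r genes or pseudogenes. Among the protein-coding ones it was present for 5 of the 146 (3.42%). None of the Vmn2r, Defa, Defb, Mrgpr or Fpr genes in the windows had one. A promoter site was present for 74.6% of all protein-coding genes and for 35 of the 57 protein-coding genes in the windows that belong neither to these families nor to the olfactory receptors (61.4%). The vomeronasal window of chromosome 7 also holds 18 olfactory receptor (Olfr) genes, and 0 of them had a promoter site.

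The 7 Vmn1r genes with a promoter site had different levels there. Vmn1r4 on chromosome 6 shares its site, chr6:56923424-56924389, with the promoter of Nt5c3, a nucleotidase gene, and the site had 501.5 normalized reads in HAT1 WT and 484.4 in HAT1 KO cells. Reads of the 2 starts cannot be told apart. The site at Vmn1r8 had 8.22 and 8.28 reads, the one at Vmn1r20 had 10.3 and 10.8 reads, and the one at the pseudogene Vmn1r-ps12 had 20.0 and 21.0 reads, so the levels on chromosome 6 were nearly equal in both genotypes. On chromosome 13, the pseudogene Vmn1r-ps97 had 3.16 and 4.72 reads.

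The other 2 genes, Vmn1r199 and Vmn1r210, lie in the same chromosome 13 window and had lower levels in HAT1 KO cells. The Vmn1r199 site of the sequence above (chr13:22381590-22381983) had 17.8 reads in HAT1 WT and 4.92 in HAT1 KO cells, a log2 difference of -1.85. Around the start of Vmn1r210 there were 4 sites with 11.3 to 30.5 reads in HAT1 WT cells, each of them lower in HAT1 KO cells, by a log2 difference of -0.12 to -0.60.

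Taken over the 400 sites, levels were much like those of the table. The median site had 14.1 normalized reads in HAT1 WT and 14.2 in HAT1 KO cells, and the median log2 difference was -0.055, with -0.09 in the flanks and -0.06 over all sites. The level was below that of HAT1 WT in 223 of the 400. The members together kept 91.8% of the HAT1 WT reads in HAT1 KO cells, the flanks 92.6% and all sites 94.8%. A log2 difference of -1 or lower was found at 30 of the 400 members (7.50%), where 5.11% of all sites were as low, and a difference of 1 or more was found at 12 (3.00%), where 2.82% of all sites were as high. The windows were picked with this contrast known, so nothing is read from these shares. The members nearest to the limit on its lower side had differences of -1.03 and -1.01, and the next ones had -0.98 and -0.94.

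Among sites with at least 16 reads in the higher genotype, 14 of the 205 members were lower by a log2 of 1 or more, against 4.17% of such sites in the table. The scatter of the differences was wide at low levels. Over all sites the SD of the log2 difference was 0.76 for sites with a mean below 8 reads, 0.58 from 8 to 16 reads, 0.47 from 16 to 64 and 0.28 above 64. Of the members, 102, 114, 127 and 57 were in these classes, and 12, 8, 8 and 2 of them were lower by a log2 of 1 or more. Of all sites in these classes, 9.64%, 5.28%, 3.51% and 0.879% were as low.

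**Figure D2:**
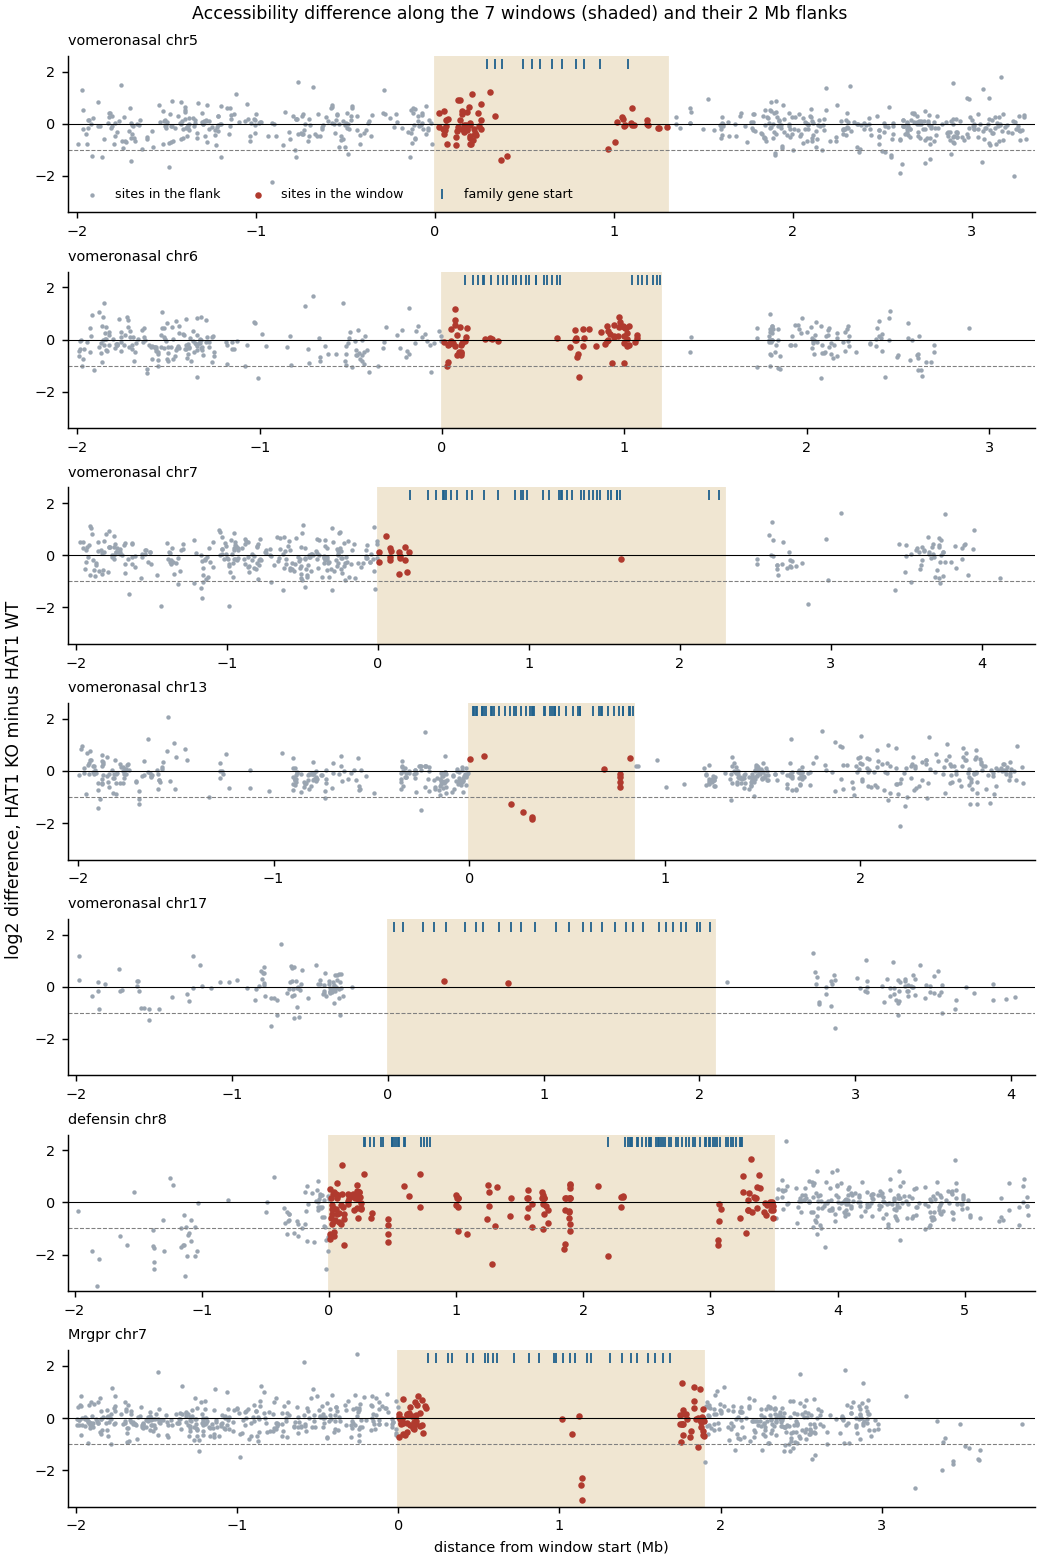
Log2 difference, HAT1 KO minus HAT1 WT, of each site (points) against its distance in Mb from the window start, for the 7 windows (shaded, larger points) and their 2 Mb flanks (small grey points); ticks above mark the starts of family genes and the dashed line marks -1. The long stretches with gene ticks and no points are the site-free arrays, and the lowest points of the windows are 3 Mrgpr sites between -2.30 and -3.13 and 1 defensin site at -2.38.

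The windows differed from each other more than their joint median shows. The median difference was -0.07 on chromosome 5, 0.02 on chromosome 6, -0.05 in the vomeronasal window of chromosome 7, -0.32 on chromosome 13, 0.175 on chromosome 17, -0.08 in the defensin window and -0.11 in the Mrgpr window. These rest on 66, 73, 16, 12, 2, 158 and 73 sites. In the defensin window, 16 sites stood at the lowest deposited value of both genotypes, a fixed difference of 0.18 that measures no change. Without them its median was -0.155 over 142 sites, and the median of all members was -0.08 over 384. With all sites kept and measured from the median of its own flanks, each window lay between -0.19 (chromosome 13) and 0.215 (chromosome 17). The flanks of the windows on chromosomes 6, 13 and 17 hold further Vmn1r, Vmn2r or Fpr genes, so they are neighbours of the windows and not stretches free of the families. The first and last sites inside each window had a median difference of -0.11, and the nearest sites outside had -0.01, with ranges from -1.42 to 0.51 and from -0.76 to 0.42.

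A split by the nearest gene, chosen after the values were seen, set 65 sites apart that lie closest to a family gene. Of these, 12 (18.5%) were lower by a log2 of 1 or more, and of the 335 sites closest to another protein-coding gene 18 were (5.37%), where 5.11% of all sites in the table were as low. The first set kept 74.98% of the HAT1 WT reads and the second 92.8%. The median differences did not separate in this way, at -0.04 and -0.07. With at least 16 reads, 6 of 17 sites nearest a family gene and 8 of 188 nearest another gene were lower by a log2 of 1 or more, beside the 4.17% of such sites in the table. The low sites lie in few places, which are described window by window below. When the 3 low Mrgpr sites were left out, the sites nearest family genes kept 89.0%, and when the 3 low chromosome 13 sites were left out as well they kept 94.4%.

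**Figure D3:**
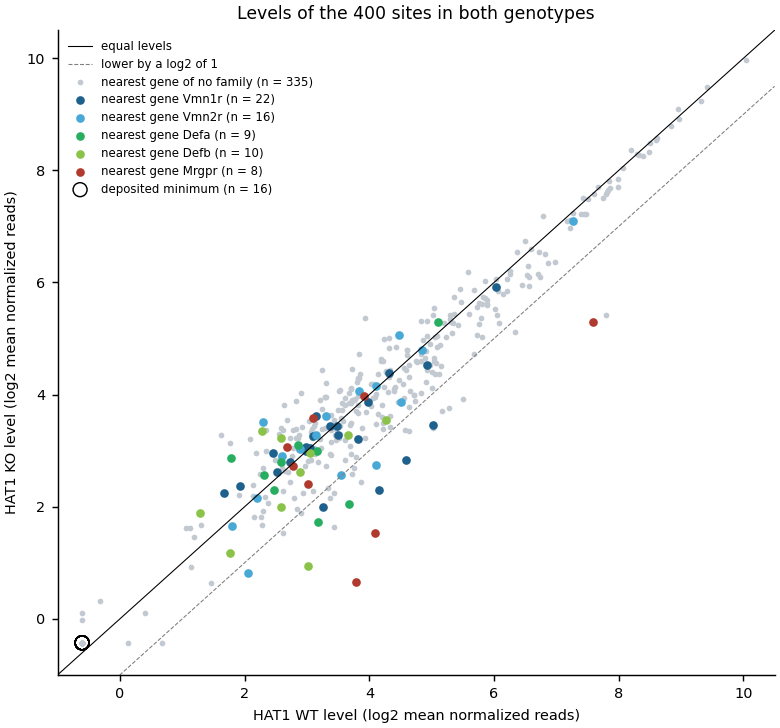
Level of each of the 400 sites in HAT1 KO against HAT1 WT cells, both as log2 of mean normalized reads, coloured by the family of the nearest gene; the solid line is equality, the dashed line is a log2 difference of -1, and rings mark 16 sites at the lowest deposited value of both genotypes. The sites of other genes with high levels lie close to equality, and the highest Mrgpr site (192.7 and 39.1 reads) and the lowest defensin site (221.3 and 42.5 reads) lie far below the dashed line.

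In the Mrgpr window 6 of the 73 sites lie between the first and the last of 28 Mrgpr genes, and 3 of these 6 were among the 4 lowest of all members. They sit within 6.35 kb of each other, 29.3 to 34.9 kb from Mrgprb5 and the pseudogene Mrgprb12-ps, in intergenic sequence. The widest, chosen for mention after its values were seen, had 192.7 normalized reads in HAT1 WT and 39.1 in HAT1 KO cells, a log2 difference of -2.30. The site chr7:48132311-48132594 had 17.0 and 2.89 reads (-2.56), and chr7:48138499-48138657 had 13.8 and 1.58 reads (-3.13). Of all sites in the table within 0.25 on the log2 scale of their mean levels, 0.104% of 4812, 0.110% of 42848 and 0.0331% of 39227 had a lower difference still. The 3 sites were picked as low ones, so these shares are no test.

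For the widest of the 3, 96.0% of its 31-base words occur once in the genome. For the other 2 sites only 58.7% and 54.3% of the words do, so reads there may also come from like sequence elsewhere, and how the study's alignment placed such reads was not tested. The other 3 sites of the Mrgpr array were near equality or moderately lower. The one beside Mrgprx1 had 6.82 and 6.63 reads, the one beside the pseudogene Mrgprb7-ps had 8.06 and 5.31, and the one 22.9 kb from Mrgprb12-ps had 15.03 and 15.78 reads.

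The remaining 67 sites of the Mrgpr window lie at its borders, among genes with other roles, and kept 92.9% of their reads. The highest was the promoter of E2f8, a cell cycle transcription factor, with 385.3 reads in HAT1 WT and 372.2 in HAT1 KO cells. The highest difference among sites with at least 16 reads was 0.73, 19.2 kb from Spty2d1, with 13.2 and 21.9 reads. A site 7.14 kb from E2f8, with 6.15 and 2.89 reads, was the only border site lower by a log2 of 1 or more.

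In the vomeronasal window of chromosome 13 all 12 sites were nearest to a Vmn1r gene, and this window holds 47 Vmn1r genes and pseudogenes. The 12 sites kept 64.4% of their HAT1 WT reads, and 4 of them were lower by a log2 of 1 or more, beside 5.11% of all sites. Only 4 of the 12 had at least 16 reads in the higher genotype. Of those, 3 were as low, beside 4.17% of such sites in the table. The highest site in HAT1 WT cells was chr13:22335330-22335932, 2.46 kb from Vmn1r197, with 32.4 reads in HAT1 WT and 10.9 in HAT1 KO cells (-1.57). It is 76.8% repeat-masked. A pair of sites in an intron of Vmn1r199 had 24.1 and 7.11 reads (-1.76) and 17.8 and 4.92 reads (-1.85), and 64.5% and 100% of their words occur once. A site in an intron of Vmn1r195 had 9.51 and 4.00 reads (-1.25).

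The 4 sites lower by a log2 of 1 or more follow each other along the chromosome with no other site between them. The 2 sites before them and the last site of the window were higher in HAT1 KO cells, with differences of 0.47, 0.58 and 0.51 at 3.16 to 8.88 reads in HAT1 WT cells. Leaving out the 3 neighbouring sites of Vmn1r197 and Vmn1r199, the window kept 87.7% of its reads and had a median of -0.12. The Vmn1r cluster that follows within the right flank, from 22.9 to 23.3 Mb with 22 genes, had 23 sites within 100 kb of its genes, kept 83.7% and had 0 sites lower by a log2 of 1 or more.

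On chromosome 5 the window holds 12 Vmn2r genes, and 9 of the 66 sites were nearest to one of them. The lowest was the site printed above, 5.56 kb from Vmn2r-ps21, with 17.3 reads in HAT1 WT and 6.68 in HAT1 KO cells (-1.37). A second site 10.9 kb from the same pseudogene had 4.14 and 1.75 reads (-1.24), and 9.63% of its words occur once. In an intron of Vmn2r8 a site had 4.89 and 11.4 reads, a difference of 1.22 in the other direction. The differences of the 9 sites therefore ran from -1.37 to 1.22, at levels of 4.14 to 28.6 reads in HAT1 WT cells.

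The highest member of all was the Crlf2 promoter in this window, which had 1053 reads in HAT1 WT and 1003 in HAT1 KO cells. Crlf2 lies past Vmn2r17, between it and the processed pseudogene Vmn2r-ps23, and a second Crlf2 promoter site had 390.7 and 380.0 reads. In an intron of Fgfrl1, a receptor gene outside the array, a site had 7.46 and 16.3 reads, the highest difference of the window among sites with 16 reads or more, at 1.13.

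On chromosome 6 the 10 sites nearest to Vmn1r genes had differences from -0.11 to 0.43, and 0 of them were lower by a log2 of 1 or more. They kept 99.7% of their reads. This window holds 28 Vmn1r genes in 2 arrays with Ppm1k, Herc6, Pyurf, Lancl2 and Vopp1 between them. The lowest site was 15.9 kb from Ppm1k, the gene of a mitochondrial phosphatase, with 35.8 reads in HAT1 WT and 13.1 in HAT1 KO cells (-1.45), and the Ppm1k promoter had 685.0 and 714.1 reads, the highest level of the window. In an intron of Fkbp9, a chaperone gene, a site had 9.45 and 21.6 reads (1.19).

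The Vmn2r arrays of chromosomes 7 and 17 were close to bare of sites. Within the array on chromosome 7 there was 1 site in 2.08 Mb, in an exon of Vmn2r76, with 3.48 reads in HAT1 WT and 3.16 in HAT1 KO cells. The other 15 sites of this window lie before the array and run from Fah to the pseudogene Vmn2r-ps62, and their differences were between -0.71 and 0.75. The lowest, chr7:84740070-84740421, had 26.2 and 16 reads, and the highest level was at the promoter of Zfand6, with 292.0 and 330.8 reads. On chromosome 17 the 2 sites of the window had 14.3 and 16.7 reads, 14.0 kb from Vmn2r96, and 8.82 and 9.65 reads, 10.4 kb from Vmn2r97. With 1 and 2 sites in these arrays, a difference between the genotypes was not measurable across most of these genes.

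The defensin window held the most sites, 158, and 18 of the 30 low ones. Its left border differed from the rest. The 2 Mb before the window had 81 sites with a median difference of -0.71, and 31 of them were lower by a log2 of 1 or more, while the 2 Mb after it had 234 sites, a median of 0.01 and 4 such sites. Accessibility-loss domains were defined as runs of 25-site means of the log2 difference below -0.58, joined over gaps of up to 1 Mb. The table held 165 of them with 2.74% of its sites. One of these, chr8:15497193-18725094, ended just inside the window, within Mcph1, a chromosome condensation gene. It took in 6 members, with differences from -1.42 to 0.50, and no other member lay in a domain.

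The defensin window as a whole was mixed. The 53 sites before the first defensin gene, which include the 6 members in the domain, kept 90.9% of their reads. The 28 sites after the last defensin gene kept 99.99%, while the 77 sites from the first to the last one kept 57.3%. Without the lowest site these 77 kept 69.0%. Among those with at least 16 reads, 5 of 13 were lower by a log2 of 1 or more, beside 4.17% of such sites in the table. The sites in this stretch with at least 90% of words found once kept 73.5% (22 sites, 5 of them lower by a log2 of 1 or more). The other 55 kept 49.1%, with 7 lower. The lowest site is one of these 55, and the share they kept without it was not computed. Over the table, 5.11% of all sites and 6.06% of those under 90% were as low.

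The lowest, chr8:19979822-19980670, had 221.3 reads in HAT1 WT and 42.5 in HAT1 KO cells, a log2 difference of -2.38. Of the 4319 sites in the table within 0.25 on the log2 scale of its mean level, 1 had a lower difference. The site was picked as the lowest of its window, so this rank is no test. It is intergenic, 54.1 kb from the nearest protein-coding gene, Gm31371, is 64.7% GC with no masked base, and 71.6% of its words occur once. The next highest of the low sites were chr8:19784530-19785052, with 81.0 and 34.8 reads (-1.22), and chr8:20557104-20557967, with 45.3 and 15.1 reads (-1.58). Only 26.8% and 12.4% of the words of these 2 sites occur once. A pair of sites beside Spag11a, a defensin-like gene of the epididymis, had 38.6 and 13.5 reads and 23.8 and 10.3 reads, with all words found once.

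The sites nearest to defensin genes themselves were few and low. There were 9 sites nearest a Defa gene and 10 nearest a Defb gene for 63 defensin genes, with 2.43 to 34.3 reads in HAT1 WT cells. The highest, 28.5 kb from Defa21, had 34.3 and 39.1 reads. In an intron of Defb33 a site had 8.06 reads in HAT1 WT and 1.92 in HAT1 KO cells (-2.07), and 2 sites 6.53 and 9.52 kb from the pseudogene Defa-ps11 had 12.7 and 4.11 reads (-1.63) and 9.06 and 3.32 reads (-1.45). Near Defb1, the beta defensin of kidney and airway epithelium, the 3 sites had differences of -0.08, -0.72 and -0.27. In the other direction, a site in an intron of Defb40 had 4.82 and 10.2 reads (1.08) and one near Defa-ps14 had 3.43 and 7.31 reads (1.09). The highest difference among sites with at least 16 reads was 1.43, 1.38 kb from Mcph1, with 15.2 and 41.1 reads.

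The defensin cluster is also where repeated sequence bears on the measurement. Of its 158 sites, 102 (64.6%) had at least 90% of their 31-base words found once in the genome, compared with 87.6% of the sites in the other 6 windows and 94.6% of all sites. The assembly has 350 kb of gap in this window. There were 34 sites in 13 groups of near copies, defined by at least 50% of shared words, all of them in the defensin window and starting between 19.7 and 20.8 Mb. The sites at the deposited minimum were all here as well. In 16 sites both genotypes stood at the lowest value of their column, 0.655 reads in HAT1 WT and 0.742 in HAT1 KO cells, which gives a difference of 0.18 that measures no change. For 14 of the 16, no word occurs once in the genome. Over the table there were 933 such sites (0.406%), and 896 of them had no word that occurs once. The repeated stretch printed above is one of them, and so is its copy on the other strand.

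**Figure D4:**
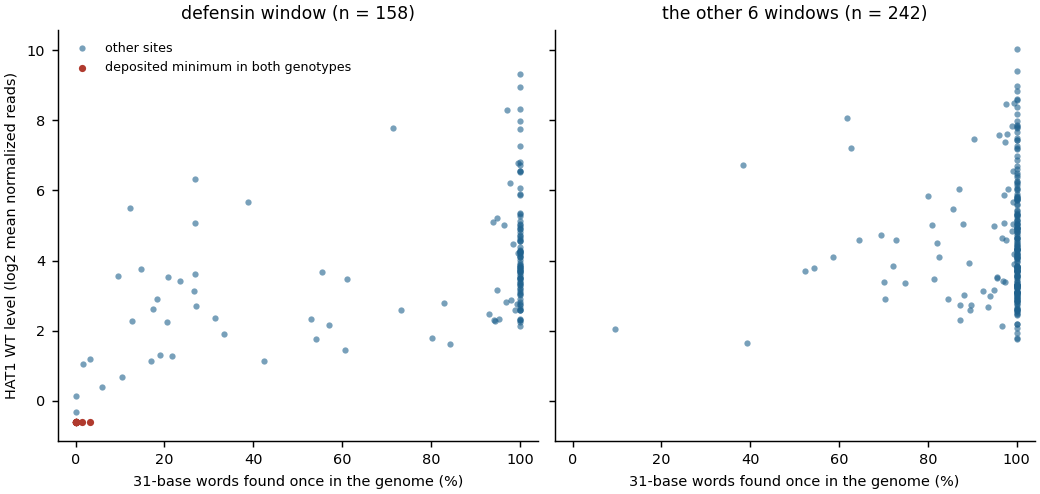
HAT1 WT level (log2 of mean normalized reads) of each site against the percentage of its 31-base words that occur once in the genome, for the defensin window (left, 158 sites) and the other 6 windows (right, 242 sites); red points are the 16 sites at the deposited minimum in both genotypes. Sites with few such words are common in the defensin window and rare in the others, and the red points lie at or near 0%.

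Copies did not all have the same level or difference. One group of 3 copies, starting between chr8:19784530 and chr8:20297186, had 33.6 to 81.0 reads in HAT1 WT cells and differences of -0.51 to -1.22, so all 3 were lower in HAT1 KO cells. A pair starting at chr8:20424662 and chr8:20550097 had differences of -0.78 and -1.80 at 12.2 and 10.8 reads. A group of 4 had differences from -1.11 to 0.65 at 0.796 to 13.5 reads. Such sites share sequence and are not independent measurements. Over all windows, 13 of the 86 sites under 90% and 17 of the 314 at or above it were lower by a log2 of 1 or more, and these sets kept 73.8% and 93.5% of their reads. Over the whole table, 6.06% of the 12339 sites under 90% were as low, beside 5.11% of all sites, and those under 90% kept 95.3%.

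The windows also hold promoters of genes outside the families. For 33 such genes, some of which share a site, the highest site in the window within 1 kb of a start had differences from -0.38 (Cplx1) to 0.49 (Ptpn5) with a median of -0.05, and 0 were lower by a log2 of 1 or more. Their median was 252.5 reads in HAT1 WT cells, where differences scatter least. Over all 64 sites within 1 kb of these genes' starts in the windows, weaker ones included, differences ran from -0.85 at Fkbp9, with 24.8 reads in HAT1 WT and 13.7 in HAT1 KO cells, to 1.13 at Fgfrl1, with 7.46 and 16.3 reads. The highest sites include Agpat5, a lipid acyltransferase gene, with 639.1 and 604.7 reads, and the shared promoter of Alg11 and Atp7b, the copper transporter gene, with 494.6 and 548.7 reads. Lancl2 had 458.3 and 445.7 reads. Angpt2, an angiopoietin gene near the left border of the defensin window, had 41.1 and 53.4 reads at its start inside the window.

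In base composition and width the members were close to other sites. They were 49.6% GC and 271.5 bp wide at the median, against 50.1% and 255 bp over the table. In the 300 bases around site centres, searched on both strands, the AP-1 motif TGANTCA was found in 80 members (20.0%) and 27.2% of all sites, the TEAD motif GGAATG in 73 (18.3%) and 21.1%, and the E-box CAGCTG in 66 (16.5%) and 21.4%. The CTCF core motif was found in 1 member and 0.709% of all sites, and the ETS motif CCGGAAGT in 6 members (1.5%) and 0.718%. Of the 30 low members, 3 held the AP-1 motif, 9 the TEAD motif and 8 the E-box, and 0 held the CTCF or ETS motif. The 3 Mrgpr sites held no AP-1, TEAD, CTCF or ETS motif, and the site chr7:48132311-48132594 held 1 E-box. A match of letters in these windows does not show that a factor binds.

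Genes of the same families outside the windows gave a further set of sites. The annotation has 445 of them, pseudogenes included, of which 29 (6.52%) had a site within 1 kb of a start. For the protein-coding ones it was 17 of 276 (6.16%), again below the 74.6% of all protein-coding genes. The families differed, with a promoter site for 3 of 5 Mrgpr and 5 of 19 Defb genes. It was 10 of 252 for Vmn1r, 11 of 163 for Vmn2r and 0 of 6 for Fpr genes. Within 100 kb of these genes there were 1221 sites, with a median difference of -0.06. Of these, 43 (3.52%) were lower by a log2 of 1 or more, and they kept 94.5% of their reads. The 437 sites nearest a family gene kept 91.8%, with 21 low sites (4.81%). With at least 16 reads, 1 of 155 of these sites was low, where 6 of 17 were inside the windows. The windows were chosen with the values known, and these genes are the ones that the choice left out. The same choice therefore shaped both sets, and the counts stand side by side without a test.

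The 20 sites nearest the 5 Mrgpr genes outside the windows had a median difference of -0.365 and kept 83.1% of their reads, with 1 lower by a log2 of 1 or more. The 186 sites nearest Vmn1r genes kept 93.8% and the 186 nearest Vmn2r genes kept 92.8%. Near Defb genes 33 sites kept 97.1%. The 23 clusters of at least 5 genes outside the windows were as thinly covered in places as those inside. Defb clusters on chromosomes 2 and 14 were not, with 164.8 and 174.6 sites per Mb within 100 kb of their genes. The Vmn1r cluster at 20.1 to 21.6 Mb of chromosome 7, with 37 genes, held 0 sites within 100 kb of its genes. A cluster of 21 Vmn1r and Vmn2r genes at 9.75 to 10.8 Mb of chromosome 7 had 12 sites and kept 58.2%, the lowest of the clusters with at least 5 sites.

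**Figure D5:**
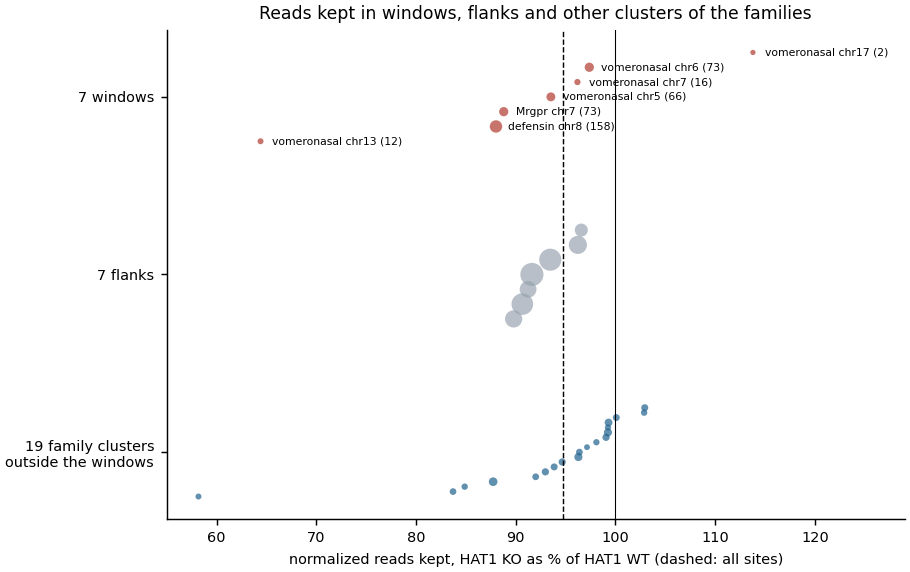
Normalized reads in HAT1 KO cells as a percentage of those in HAT1 WT cells, summed over the sites of each of the 7 windows (red, site numbers in brackets), their flanks (grey) and 19 clusters of the same families outside the windows with at least 5 sites (blue); point size grows with the number of sites and the dashed line is the value of all sites, 94.8%. The window of chromosome 13 (64.4%, 12 sites) and 1 cluster outside the windows (58.2%, 12 sites) lie to the left of the others, and the window of chromosome 17 (113.8%, 2 sites) lies to their right.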

How the data were processed

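ATAC-Seq of 3 HAT1 WT and 3 HAT1 KO pMEF lines was analysed. Per the study's methods and processing notes, reads were aligned to mm10 with Bowtie2 within an ENCODE workflow, peaks came from MACS2, and DiffBind 2.14.0 compared the genotypes. The consensus rule and library scaling are not given in the sources used here. The deposited table holds, per site, log2 mean normalized reads for each genotype, which were used. It also holds the authors' overall level, fold change, p-value and false discovery rate, which were not.

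Accessibility-loss domains were called here by a rule modelled on the study's methods, and they are not the study's own list of domains. The log2 difference was computed as HAT1 KO minus HAT1 WT. Reads are 2 to the power of the deposited level. Reads kept are summed HAT1 KO over summed HAT1 WT reads. Coordinates are as deposited. Genes came from GENCODE vM21, and sequence, repeat masking and 31-base word counts from GRCm38. The nearest gene was the nearest protein-coding or family gene. Named sites were, per window, the highest HAT1 WT level and, with at least 16 reads in the higher genotype, the lowest and highest difference. Named genes were family and other coding genes with a site within 1 kb of a start. Members and lists were chosen with earlier results of these data known, and sites named beyond this rule were chosen after their values were seen. The sequence of 1 site is not reported here. Scripts were tested on simulated data. Python 3.11.15, pandas 2.3.3, numpy 2.4.6, numba 0.67.0 and matplotlib 3.10.9 were used.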

Additional observations from a re-analysis of the deposited data

How the results depend on the processing

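The median difference of the members and its distance from the flanks moved by less than the SD over the 7 windows under all 17 and 18 alternatives, from -0.11 to 0.005 and from -0.08 to 0.045. Both are near 0 and changed sign under some of them. The number of members lower by a log2 of 1 or more was 30 of 400 in the report, beside 5.11% of all sites. It was 16 of 400 with 4 reads added to each mean and 18 of 298 among sites of at least 8 mean reads. Without the defensin window it was 12 of 242, and among sites with at least 90% of words found once 17 of 314 (5.41%). With a limit of 0.58 it was 76, and with a limit of 2 it was 5. The share of reads kept, 91.8% in the report, lay between 87.8% and 93.5% under 14 of its 15 alternatives. Among sites nearest a family gene, a split added after the data were seen, it was 74.98% and 12 sites were low. The number of members in accessibility-loss domains, 6 in the report, was 8 with a cutoff of -0.4 and 4 with means of 15 sites. It was 0 with a cutoff of -1 and 0 with means of 51 sites. No paired analysis was possible because the deposited columns are genotype means, and for the same reason no line could be left out. Few reads per site and sequence found more than once limit the precision.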
